A study of Mus musculus with 4 samples.

Results

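The genes described here encode integrins, the ligands and selectin systems that work with them, and the proteins that switch integrins on or anchor them. They were taken from a list of 39 mouse genes, and those with an array row annotated to a single gene were kept, which left 36 of the 14860 named genes in the table. Itga1, Itga4 and Itgax had a row shared with another gene and were not analysed here. The 36 comprised 9 integrin α chains, 5 integrin β chains, 6 counter-receptors and other adhesion receptors, 6 genes of the P-selectin system, 7 genes of integrin activation and focal adhesion, and 3 tetraspanins.

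The study treated CD4 T cells with JQ1, a small molecule that displaces BET bromodomain proteins from acetylated chromatin, while they were driven towards the TH17 fate, that of IL-17-producing helper cells. Naive CD4 T cells, enriched with magnetic beads to above 90% purity from C57BL/6 spleens, were stimulated with beads against CD3 and CD28 in TGF-β1 (5 ng/ml), IL-6 (20 ng/ml), IL-23 (20 ng/ml) and antibodies to IFN-γ and IL-4 (10 μg/ml each). All of this was shared by the JQ1 group (150 nM, 2 arrays) and the DMSO group (solvent, 2 arrays), whose sample titles read untreated. Both groups were labelled 48 hours, although the treatment text also mentions 4 days of stimulation. The labels do not say whether the 2 samples of a group came from separate mice or cultures, so p-values reflect only how far these samples differ, and that spread could be technical.

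Integrins are αβ heterodimers that sit on resting T cells in a low-affinity form. Signals from the T cell receptor or chemokine receptors act through the GTPase Rap1 and its effectors to bring talin and kindlin to the β tail, which opens the integrin and lets it bind its ligand. Selectin ligands, glycoproteins carrying fucosylated and sialylated glycans, mediate the rolling that comes before that arrest, and helper T cells that enter inflamed tissue depend on both systems.

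Each gene has 1 deposited log2 signal per array, and a change is the JQ1 mean minus the DMSO mean on that scale, tested with limma and adjusted by Benjamini-Hochberg over all named genes. Signals of different genes depend on their probes and are not ranked against each other. As a marker of dim rows, the level that 95% of 800 genes for olfactory and vomeronasal receptors stay under (5.80) served as a background reference, a choice made with the values known. The 6 measured of 8 CD4 T cell markers were above it in every sample and their changes lay between -0.21 and 0.060. The 6 measured of 7 TH17 markers were lower on both JQ1 arrays, from Rora at -0.83 to Il17f at -3.41, and none of them passed over all genes. Among them, the means of Il23r in both groups and that of Il17a with JQ1 lay under the background reference. The median change of all named genes was -0.086, and it was more negative in brighter genes, at -0.20 for those with a mean above 9. Over all genes Pearson r was 0.982 between the JQ1 arrays, 0.981 between the DMSO arrays and 0.976 to 0.980 across groups, as a description of the arrays.

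Most adhesion transcripts read lower with JQ1, as most genes on the arrays did, and no single one passed the test. Of the 36 genes, 29 had a change below 0 and 7 above, which is 80.6% below 0 against 66.2% of all named genes, with a median of -0.20 against -0.086 for all named genes, a lowest change of -0.84 (Itgb1) and a highest of 0.15 (Cd151). None passed at an adjusted p of 0.05, where 0.00673% of all genes did (1 gene), and the members' adjusted p in limma ran from 0.277 to 0.997. At an unadjusted p below 0.05, 7 members were lower and 0 higher, which is 19.4% of them as lower, against 8.26% of all genes lower and 1.72% higher. Both JQ1 arrays lay below both DMSO arrays for 20 members (55.6%) and above them for 0, while 31.4% of all genes lay below and 10.0% above. The other 16 of the 36 overlapped, a smaller share than the 58.6% of all genes that did. No member reached a 2-fold change, which 1.02% of all genes did as lower and 0.283% as higher. Brighter genes were the more negative ones, and the gap in sign and in median was smaller among genes above the background reference in a group. Of the 25 such members 76% were below 0, against 70.8% of all such genes. The medians were -0.21 for those members and -0.12 for all such genes. By mean signal, the medians of members and of all genes were -0.16 and -0.033 up to 5, and -0.38 and -0.082 from 5 to 7. They were -0.19 and -0.14 from 7 to 9, and -0.22 and -0.20 above 9, where 4 members lay. At an unadjusted p below 0.05 in limma, 20% of the members above the background reference were lower, against 11.3% of all such genes. The 22 members above the median mean signal of all genes were also fitted with such genes only. In that fit 6 of the 22 were lower at that p, against 1048 of 7430 genes (14.1%). Without JQ1 replicate 1 the members' median was -0.21, against -0.087 for all genes. Without DMSO replicate 2 it was -0.27, against -0.13. Centring each array on its median moved the median of all genes to 0.03 and that of the members to -0.08. After centring 6 of the 36 members were lower and 0 higher at that p. Of all 14860 genes 679 (4.57%) were lower and 572 (3.85%) higher.

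**Figure D1:**
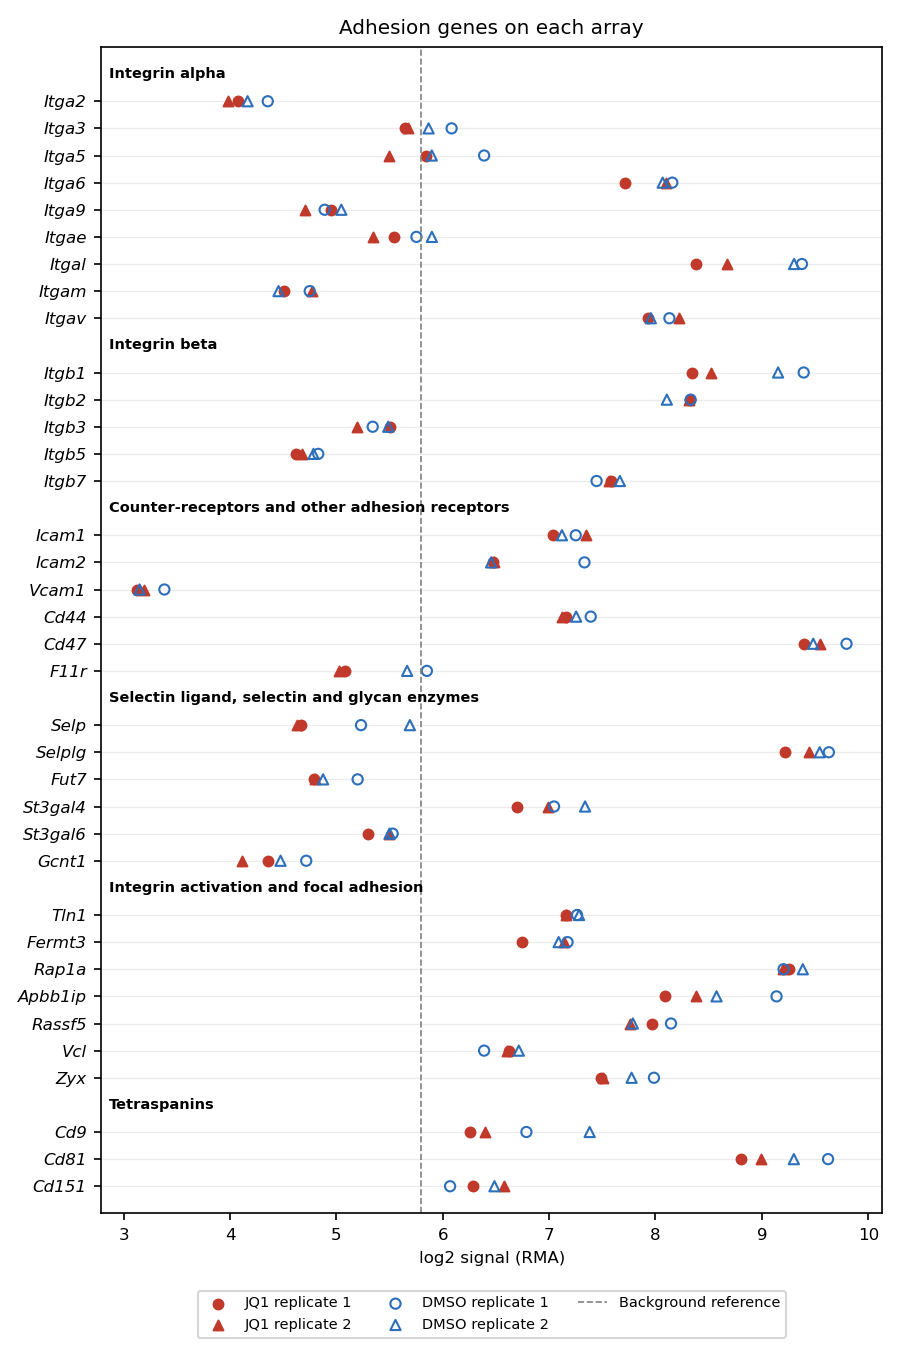
Log2 RMA signal of the 36 adhesion genes on each array, in groups by role, with filled red symbols for JQ1 and open blue symbols for DMSO and circles and triangles for replicates 1 and 2. The dashed line is the background reference of 5.80. For 20 genes both JQ1 values lie below both DMSO values, for St3gal6 only narrowly, and for none do both lie above.

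Among the integrin α chains, Itgal had the largest difference. It encodes αL (CD11a, Entrez gene 16408), which pairs with β2 to form LFA-1, the main leukocyte receptor for ICAM-1 and a part of the T cell synapse. Its signal was 8.38 and 8.67 with JQ1, against 9.38 and 9.30 with DMSO. Both JQ1 arrays lay below both DMSO arrays, and group means were 8.53 ± 0.21 with JQ1 and 9.34 ± 0.053 with DMSO (SD, n = 2 each). The change of -0.81 (SE 0.17, 95% interval -1.23 to -0.39, 1.76-fold lower) did not pass over all genes (limma adjusted p = 0.286). In bulk samples fewer cells of a type and less RNA per cell cannot be told apart, and some markers of other lymphocytes also read lower with JQ1. The summed linear signal of 3 measured of 5 natural killer markers was 132 to 141 with JQ1, against 225 to 241 with DMSO, with Ncr1 under the background reference in both groups. The change of Klrd1 was -1.73, while the values of Tyrobp (-0.30) and Ncr1 (-0.091) overlapped between the groups. The summed signal of the 3 CD8 T cell markers was 141 to 185 with JQ1, against 223 to 231 with DMSO, with Eomes under the background reference. Their part in the Itgal result was not tested.

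The α chains that pair with β1 differed less. Itga5, the classical fibronectin receptor chain, was at 5.84 and 5.49 with JQ1, against 6.39 and 5.90 with DMSO. Both JQ1 arrays were the lower ones, but the replicates of each group were far apart and the change of -0.47 had an interval of -1.05 to 0.10. Itga3 (change -0.32) and Itga6 (-0.21), chains of laminin receptors, and Itga2 (-0.23), a chain of a collagen receptor, had intervals that include 0. For Itga3 and Itga2 the JQ1 arrays were the lower ones without overlap, while Itga6 overlapped because JQ1 replicate 2 (8.10) lay between the DMSO arrays. Itga9, whose product binds tenascin and VCAM-1, was at -0.14 with overlapping arrays, and its means and those of Itga2 lay under the background reference. The JQ1 means of Itga3 and Itga5 lay under it as well.

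Itgae encodes αE (CD103), the chain of the E-cadherin receptor that TGF-β is known to induce in T cells. It read 5.54 and 5.35 with JQ1, against 5.75 and 5.90 with DMSO. The 4 values separate by group, and the change of -0.38 (SE 0.16) had an interval from -0.78 to 0.012. Itgav, whose product binds vitronectin and activates latent TGF-β, showed no such separation, with 7.93 and 8.22 with JQ1, against 8.13 and 7.96 with DMSO. Its change was 0.033, with an interval of -0.40 to 0.47. Itgam, the CD11b chain of myeloid cells, stayed between 4.46 and 4.77 on the 4 arrays, under the background reference, with a change of 0.033. The summed linear signal of 6 measured of 8 macrophage, monocyte and neutrophil markers was higher, at 541 to 806 with JQ1, against 219.8 to 434 with DMSO. That sum is carried by S100a8 and S100a9, while Adgre1, Cd14, Csf1r and Mpo were under the background reference.

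Of the 5 β chains, Itgb1 had the largest difference of any of the 36 genes. β1 (Entrez gene 16412) is the shared chain of most receptors for extracellular matrix and, with α4, of the VCAM-1 receptor VLA-4. Its signal was 8.34 and 8.52 with JQ1, against 9.39 and 9.15 with DMSO. The gap between the groups exceeded the distance between replicates, with means of 8.43 ± 0.13 with JQ1 and 9.27 ± 0.17 with DMSO (SD, n = 2 each). The change of -0.84 (SE 0.17, 95% interval -1.26 to -0.42, 1.79-fold lower) did not pass over all genes (limma adjusted p = 0.277). The leukocyte chain Itgb2 was on the other side of 0, at 8.33 and 8.32 with JQ1, against 8.33 and 8.11 with DMSO. Those arrays overlapped, and the change was 0.10 with an interval of -0.29 to 0.49. Itgb7, the chain that αE and α4 use on mucosal T cells, read 7.58 and 7.56 with JQ1, against 7.45 and 7.66 with DMSO. Its JQ1 arrays lay between the DMSO arrays, and the interval of its change (0.017) was -0.37 to 0.40. Itgb3 (-0.066) and Itgb5 (-0.16), partners of αv, lay under the background reference in both groups.

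Promoter windows are shown for Itgb1, the β chain with the largest difference, for Itgb7, a β chain with a change near 0, and for F11r and Selp, which are described further on. Each is the 250 bases upstream of a RefSeq gene start in the mouse build GRCm38.p6, and 27 of the 36 genes had a window, 6 of them several. Capitals mark matches, on either strand, to any of 6 motifs spelled out after the sequences, and a palindromic match was counted once. Itgb1 is at chr8:128685404-128685653 (plus strand), F11r at chr1:171437311-171437560 (plus strand), Selp at chr1:164115014-164115263 (plus strand) and Itgb7 at chr15:102231936-102232185 (minus strand).
Itgb1: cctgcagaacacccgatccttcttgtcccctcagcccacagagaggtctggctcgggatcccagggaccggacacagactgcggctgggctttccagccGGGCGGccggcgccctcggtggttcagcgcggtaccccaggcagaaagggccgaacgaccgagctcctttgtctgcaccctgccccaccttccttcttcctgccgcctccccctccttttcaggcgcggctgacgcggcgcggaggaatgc
Itgb7: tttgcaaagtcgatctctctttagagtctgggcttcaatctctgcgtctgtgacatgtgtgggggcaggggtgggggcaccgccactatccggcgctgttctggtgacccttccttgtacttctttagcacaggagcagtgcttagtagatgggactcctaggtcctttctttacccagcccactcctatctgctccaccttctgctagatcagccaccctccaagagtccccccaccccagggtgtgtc
F11r: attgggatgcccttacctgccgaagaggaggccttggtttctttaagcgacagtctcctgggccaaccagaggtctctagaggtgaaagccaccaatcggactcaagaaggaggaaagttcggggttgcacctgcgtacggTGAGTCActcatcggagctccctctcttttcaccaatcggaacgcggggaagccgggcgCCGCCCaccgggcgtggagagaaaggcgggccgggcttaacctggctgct
Selp: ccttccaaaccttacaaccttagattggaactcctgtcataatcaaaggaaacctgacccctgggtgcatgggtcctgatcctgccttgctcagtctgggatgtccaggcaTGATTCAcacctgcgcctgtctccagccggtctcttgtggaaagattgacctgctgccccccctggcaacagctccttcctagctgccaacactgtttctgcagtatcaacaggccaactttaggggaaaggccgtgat

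The Itgb1 window held 21 CG dinucleotides and a GC box starting 151 bases upstream, while the Itgb7 window held 5 CG dinucleotides and none of the 6 motifs. The median over all 32851 windows was 6 CG dinucleotides. In F11r (17 CG dinucleotides) an AP-1 motif began 109 bases and a GC box 50 bases upstream, and in Selp (3) an AP-1 motif began 139 bases upstream. A GC box, spelled GGGCGG, was found for 17 of the 27 genes (63.0%) and in 32.7% of all windows. The ETS motif, spelled CCGGAA, was there for 14.8% of the genes and in 12.0% of all windows. For the RUNX motif, which was TGTGGT, the shares were 14.8% of the genes and 14.0% of windows. The AP-1 motif, with the letters TGANTCA, was found for 11.1% of the genes and in 6.75% of windows. A TATA box, searched as TATAAA, was found for 3.7% of the genes and in 12.4% of windows. The E-box, which reads CACGTG, was in the windows of 0 of the 27 genes and in 6.02% of all windows. No motif overlaps another in the printed windows. A gene with several windows counted when any held the motif, while the shares of all windows count each window singly. The shares of genes and of windows are therefore not like for like. A match only describes the letters in these windows.

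Integrin chains that pair were set side by side for their changes. The difference between the change of an α chain and that of its β partner is free of any constant offset of an array, and it was taken for 11 pairs known to form heterodimers, chosen with the values known. For LFA-1 the difference, Itgal minus Itgb2, was -0.91. For αEβ7, Itgae minus Itgb7 was -0.40, with the JQ1 mean of Itgae under the background reference. The pairs with Itgb1 went the other way, from 0.37 for Itga5 to 0.87 for Itgav, with Itgb1 as the more negative change in each. Among those α chains, the means of Itga2 and Itga9 in both groups, and of Itga3 and Itga5 with JQ1, lay under the background reference. An offset that differs with brightness is not removed. The median of all genes was -0.033 up to a mean signal of 5 and -0.14 from 7 to 9. The within-array differences separated the groups for 8 of the 11 pairs, 2 with the α chain lower and 6 with it higher, and overlapped for 3. With 2 arrays a group the smallest p of a two-sided exact permutation test is 0.333, the value found for those 8, so that test could pass no pair, and the differences are given as a description. The 6 pairs with Itgb1 share its values and are not independent.

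**Figure D2:**
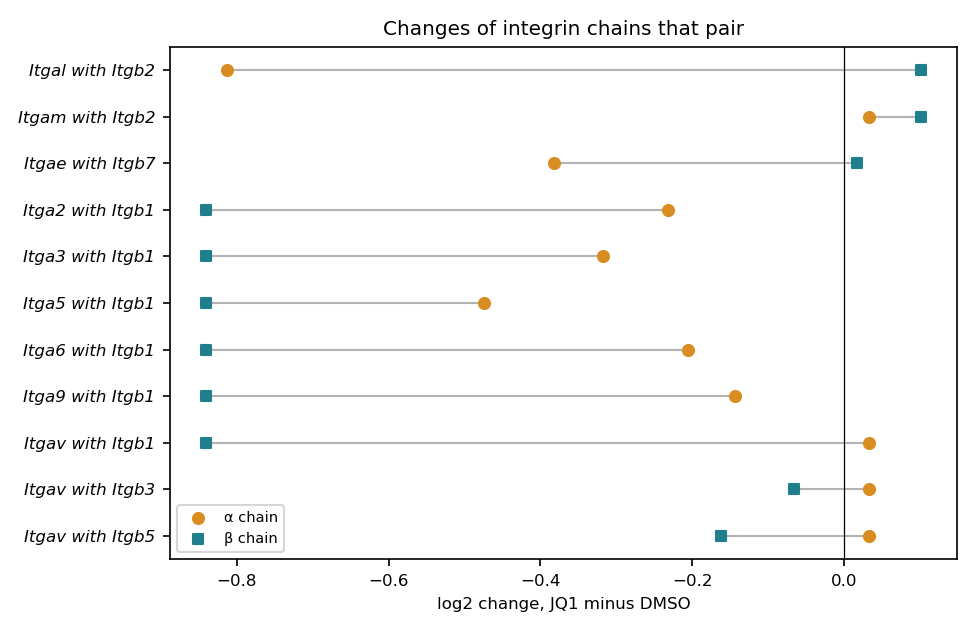
Log2 change (JQ1 minus DMSO) of the α chain (orange circles) and the β chain (teal squares) of 11 integrin pairs, joined by a grey line. Itgal lies at -0.81 and its partner Itgb2 at 0.10, while Itgb1 at -0.84 lies left of each of its 6 partners.

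Among the 6 counter-receptors and other adhesion receptors, F11r had the largest difference. F11r encodes JAM-A (Entrez gene 16456), a junctional immunoglobulin-family protein that also binds LFA-1. It read 5.08 and 5.03 with JQ1, against 5.85 and 5.67 with DMSO. The groups stood clearly apart, with a change of -0.70 (SE 0.15, 95% interval -1.08 to -0.32, 1.63-fold lower), which did not pass over all genes (limma adjusted p = 0.307). Both means (5.05 ± 0.041 with JQ1 and 5.76 ± 0.13 with DMSO, SD, n = 2 each) lay under the background reference. JAM-A is also made by endothelium and platelets. The summed linear signal of the 5 endothelial and stromal markers was 219 to 246 with JQ1, against 239.6 to 250.4 with DMSO. That sum is carried mostly by the collagen genes Col1a1 and Col1a2, while Cdh5, Kdr and Pdgfrb were under the background reference. The part of endothelium and platelets in the F11r result was not tested.

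Cd47, the widely expressed ligand of SIRPα that also associates with integrins, read 9.39 and 9.54 with JQ1, against 9.80 and 9.48 with DMSO. DMSO replicate 2 lay between the JQ1 arrays, and the change of -0.17 had an interval of -0.61 to 0.27. Icam1, the ligand of LFA-1, was at 0.0052 (interval -0.43 to 0.44). Icam2, another LFA-1 ligand, was at 6.47 and 6.48 with JQ1, against 7.33 and 6.46 with DMSO. DMSO replicate 1 alone was high there, and without it the change of -0.41 became 0.025. Cd44, the hyaluronan receptor of activated and memory T cells, had 7.16 and 7.12 with JQ1, against 7.39 and 7.25 with DMSO. These arrays separated by group, but the change was -0.18 with an interval of -0.55 to 0.18. Vcam1, the endothelial ligand of VLA-4, stayed between 3.13 and 3.38, far under the background reference.

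In the P-selectin system the JQ1 arrays lay under the DMSO arrays without overlap for all 6 genes, as they did for 31.4% of all genes, and none passed the test. For St3gal6 the nearest arrays were almost equal, at 5.495 for JQ1 replicate 2 and 5.501 for DMSO replicate 2. Of the 6 genes, 4 had means under the background reference in both groups. Selp encodes P-selectin itself (Entrez gene 20344), known mainly from platelets and endothelium, and read 4.67 and 4.63 with JQ1, against 5.23 and 5.69 with DMSO. The DMSO replicates were the more spread pair, and the change of -0.81 (SE 0.20, 95% interval -1.31 to -0.32, 1.75-fold lower) did not pass over all genes (limma adjusted p = 0.350). Its means (4.65 ± 0.027 with JQ1 and 5.46 ± 0.32 with DMSO, SD, n = 2 each) lay under the background reference. The summed linear signal of 4 measured of 5 platelet and megakaryocyte markers was 119.8 to 138 with JQ1, against 109 to 149.8 with DMSO, with Gp9, Pf4 and Ppbp under the background reference. The part of platelets in the Selp result was not tested.

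Selplg encodes PSGL-1, the glycoprotein on T cells that P-selectin binds, and read 9.21 and 9.44 with JQ1, against 9.63 and 9.54 with DMSO. The groups did not overlap, but JQ1 replicate 2 lay within 0.10 of DMSO replicate 2, and the change of -0.26 had an interval of -0.65 to 0.13 (limma adjusted p = 0.642). The enzymes that build its glycans were at -0.24 for Fut7, the fucosyltransferase of selectin ligands, -0.35 for St3gal4 and -0.12 for St3gal6, both sialyltransferases, and -0.36 for Gcnt1, which makes core 2 branches. St3gal4 was above the background reference, and the other 3 enzymes were under it in both groups. Intervals of all 4 included 0. Among 13 measured of 14 other selectins, carriers and glycan enzymes, 1 (7.69%) was lower and 0 higher at an unadjusted p below 0.05, near the 8.26% of all genes that were lower, with 0 past the adjusted threshold and a median of -0.19. That gene was B4galt1, a galactosyltransferase, at 8.38 and 8.48 with JQ1, against 9.44 and 9.03 with DMSO. Its change was -0.81 (SE 0.19, limma adjusted p = 0.334).

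Among the genes of integrin activation and focal adhesion, Apbb1ip had the largest difference. Apbb1ip encodes RIAM (Entrez gene 54519), the Rap1 effector that recruits talin, and read 8.09 and 8.38 with JQ1, against 9.14 and 8.57 with DMSO. JQ1 replicate 2 and DMSO replicate 2 were only 0.19 apart. The change of -0.62 (SE 0.24, 95% interval -1.22 to -0.023) did not pass over all genes (limma adjusted p = 0.485), and without DMSO replicate 1 it was -0.34. Rap1a, which encodes a Rap1 GTPase, read 9.26 and 9.20 with JQ1, against 9.20 and 9.38 with DMSO. The arrays overlapped, with a change of -0.067 (interval -0.44 to 0.31), and it was above 0 after each of the 3 other scalings. Rassf5, whose product RAPL is another Rap1 effector, was at -0.10 (interval -0.58 to 0.37).

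Tln1, the talin that links β tails to actin, was at 7.16 and 7.16 with JQ1, against 7.26 and 7.28 with DMSO. Replicates were nearly equal and the groups did not overlap, yet the change was only -0.11 (interval -0.46 to 0.24), close to the -0.086 of all genes. Fermt3, the kindlin of blood cells, was at -0.19 and Vcl, the talin-binding protein vinculin, at 0.061, both with overlapping arrays. Zyx, the actin-regulating focal adhesion protein zyxin, read 7.49 and 7.50 with JQ1, against 7.99 and 7.78 with DMSO. Both JQ1 arrays were the lower ones, and the interval of its change (-0.38) reached -0.77 on one side and 0.0014 on the other. Of 24 measured of 30 other genes of this machinery, 4 (16.7%) were lower and 0 higher at an unadjusted p below 0.05, against 8.26% of all genes lower, and 0 passed the adjusted threshold, with a median of -0.11. These were the adaptor Skap2 (-0.63), the adaptor Fyb (-0.44), parvin γ (Parvg, -0.42) and paxillin (Pxn, -0.41), with limma adjusted p from 0.368 to 0.443.

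Of the 3 tetraspanins, membrane proteins that cluster integrins and other receptors, Cd9 and Cd81 read lower with JQ1 and Cd151 overlapped. Cd9 (Entrez gene 12527) read 6.25 and 6.40 with JQ1, against 6.79 and 7.38 with DMSO. The JQ1 arrays were lower, while the DMSO arrays lay 0.59 apart, and the change of -0.76 (SE 0.23, 95% interval -1.34 to -0.17, 1.69-fold lower) did not pass over all genes (limma adjusted p = 0.403). Cd81 (Entrez gene 12520), a costimulatory molecule of T cells and a part of the B cell co-receptor, read 8.80 and 8.99 with JQ1, against 9.62 and 9.30 with DMSO. Its groups also stood apart, with a change of -0.56 (SE 0.18, 95% interval -1.01 to -0.11, limma adjusted p = 0.414). Cd151, which binds laminin-receptor integrins directly, read 6.29 and 6.58 with JQ1, against 6.07 and 6.49 with DMSO. Its arrays interleaved, and the change of 0.15 had an interval of -0.37 to 0.67. B cells also carry Cd9 and Cd81. The summed linear signal of 5 measured of 6 B cell markers was 194 to 208 with JQ1, against 236 to 250.5 with DMSO. Cd79b (-0.63), Cd79a (-0.34) and Pax5 (-0.21) were lower on both JQ1 arrays. Ebf1 (0.034) and Ms4a1 (0.30) overlapped between the groups and were under the background reference. None of the 5 was below an unadjusted p of 0.05 in limma. The part of B cells in these results was not tested. Of 6 measured of 7 other tetraspanins, 0 were past either threshold in limma, with a median of 0.059 and changes from -0.47 to 0.26.

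**Figure D3:**
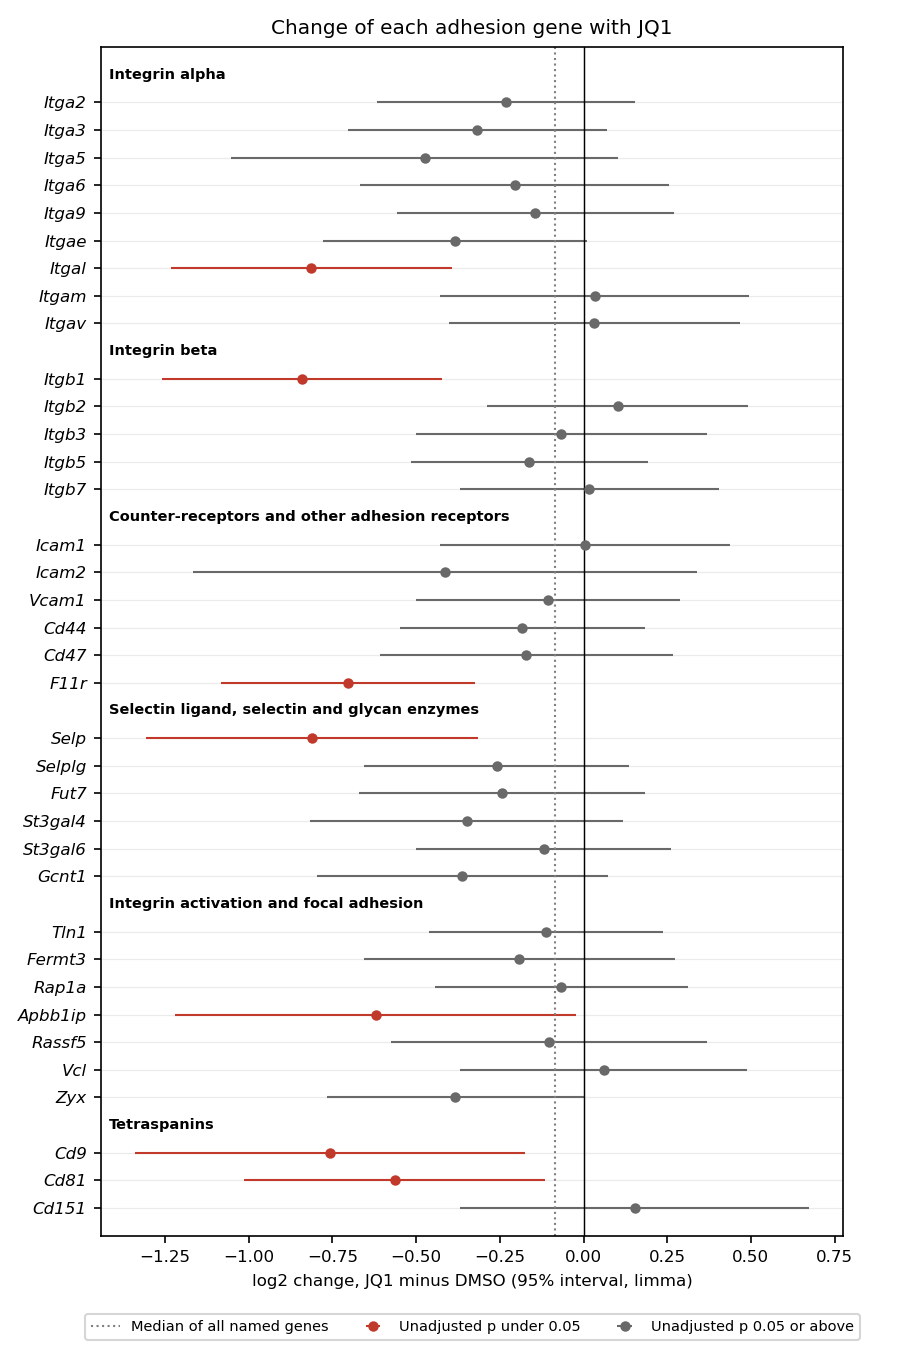
Log2 change (JQ1 minus DMSO) of each adhesion gene with its 95% interval from limma, with the 7 genes at an unadjusted p below 0.05 in red and the others in grey. The 7 red intervals lie below 0, and none of the 36 genes passed after adjustment over all 14860 genes.

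Other integrin subunits and adhesion receptors outside the list were counted in the same fit. Of 6 measured of 9 other integrin subunits, 0 were lower or higher at either threshold in limma, with a median of 0.012 and changes from -0.11 to 0.15. Of these 6, 5 lay under the background reference in both groups, so the counts rest mostly on dim rows. Of 15 measured of 18 other adhesion receptors and counter-receptors, 2 (13.3%) were lower and 0 higher at an unadjusted p below 0.05, against 8.26% of all genes lower, 0 passed the adjusted threshold and the median was -0.21. The 2 were Pecam1 (CD31) and Thbs1 (thrombospondin 1, a ligand of CD47). Pecam1 read 5.80 and 5.83 with JQ1, against 6.99 and 6.29 with DMSO. DMSO replicate 1 was the high one among these, and the change was -0.83 (SE 0.25, limma adjusted p = 0.403). Thbs1 was at -0.48 (SE 0.16), with its JQ1 mean of 5.51 under the background reference. Of the 15 receptors and counter-receptors, 7 lay under the background reference in both groups.

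**Figure D4:**
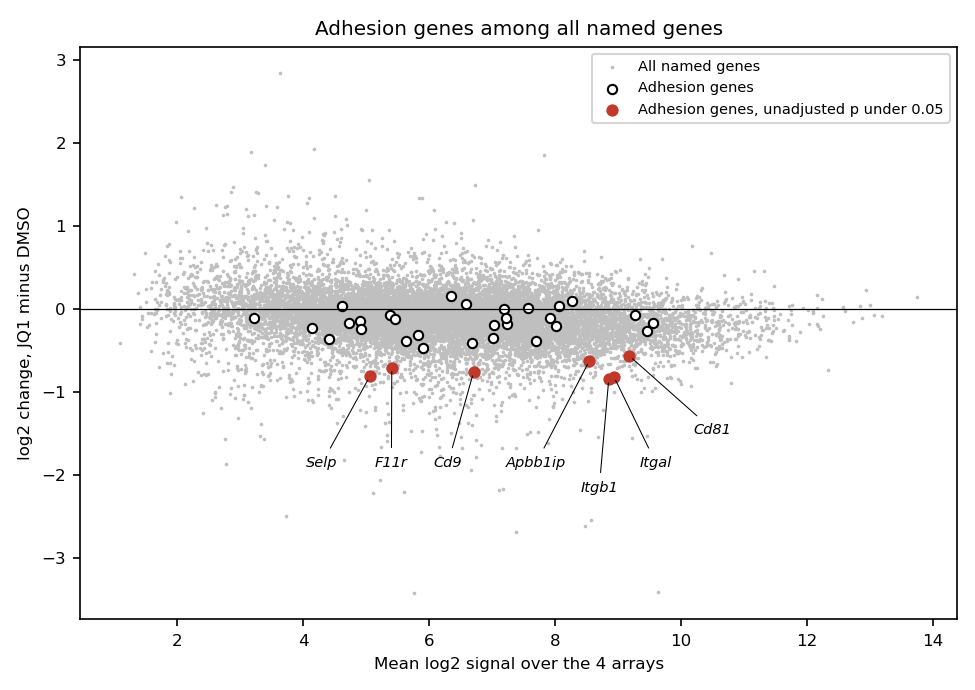
Log2 change (JQ1 minus DMSO) against the mean log2 signal over the 4 arrays for all 14860 named genes (grey), the adhesion genes (open circles) and the 7 at an unadjusted p below 0.05 (red). The adhesion genes lie between -0.84 and 0.15, inside the cloud of all genes.

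The 7 members were picked for an unadjusted p below 0.05 and then refitted on the same arrays. Counts of fits therefore describe sensitivity to the processing and are not independent support. The mean of all rows could not move a member, since none had several rows. The robust prior left each change as it was, and the limma p of Itgb1 went from 0.00310 to 0.00313. Itgal and Itgb1 were below an unadjusted p of 0.05 in all 12 alternative fits, and F11r and Selp in all 11 that included them, since the filter on dim genes removed both. Cd9 and Cd81 kept it in 9 of 12 fits each and Apbb1ip in 5 of 12. With 1 array left out the change lay from -0.96 to -0.72 for Itgb1, from -0.96 to -0.66 for Itgal and from -1.05 to -0.46 for Cd9, where the value nearest 0 was that without DMSO replicate 2. After cyclic loess, which takes out the offset of bright genes, Itgb1 was at -0.66, Itgal at -0.63, Cd81 at -0.38 and Apbb1ip at -0.45.

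**Figure D5:**
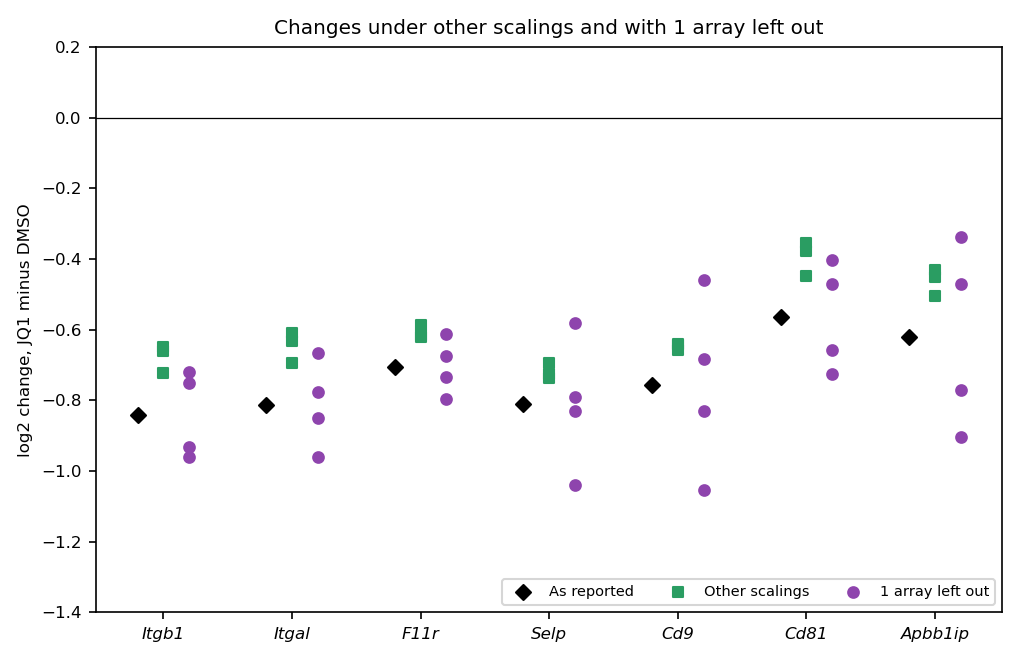
Log2 change (JQ1 minus DMSO) of the 7 members as reported (black diamonds), under 3 other scalings (green squares) and with each array left out in turn (purple circles). Every point lies below 0, between -1.05 (Cd9) and -0.34 (Apbb1ip), both with 1 array left out.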

How the data were processed

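Gene expression was read on 4 Affymetrix exon arrays, 2 with JQ1 and 2 with DMSO, from amplified, biotin-labelled total RNA, per the labels' protocols. The deposited values are log2 signals that the authors made with RMA in Affymetrix Expression Console, per the submitters' processing notes. RMA corrects background, quantile-normalizes and summarises probes, so differences between arrays are partly evened out. Versions, settings and the definition of a row: not given in the sources used here. Those notes name hg19, a human build, for mouse samples, so no coordinates of array rows are given.

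The 23332 rows held 14996 with 1 gene, 1019 with several and 7317 with none in the platform annotation, and 14941 of the single-gene rows matched RefSeq by Entrez identifier. The brightest row of a gene stood for it, giving 14860 genes, of which 135 had several rows and none was a member. All genes were fitted with limma 3.58.1 in R 4.3.3 (lmFit, eBayes, two-sided, JQ1 minus DMSO, with 3.43 prior and 2 residual degrees of freedom). The threshold was 0.05 after Benjamini-Hochberg adjustment across the whole table, without a filter. The fit was tested on simulated data. The number of arrays limits the precision.

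Members, lists and partner pairs were chosen with earlier results of these data known. Members at an unadjusted p below 0.05, and in each role the one with the largest change and the one with the highest mean, are given array by array, with partner chains beside them, and up to 4 other pathway genes per list at that p are named. Array values of further members were added after they were seen. Alternatives were a variance trend, a robust prior, 3 scalings, a filter on dim genes, the mean of all rows, a replicate block and each array left out. Figures used matplotlib 3.10.9 in Python 3.11.15.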

Additional observations from a re-analysis of the deposited data

How the results depend on the processing

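Across 12 alternatives no adhesion gene passed over all genes in limma, and 21 of the 36 kept the sign of their change in every alternative that tested them. With the filter at the median signal, where 50 of 7430 genes passed, the lowest adjusted p of a member was 0.0784 (Itgb1). At an unadjusted p below 0.05 in limma 7 of the 36 members were lower as reported. In the other fits on all 4 arrays 5 to 8 of 36 were lower, or 6 of 22 with the filter, and 0 were higher. All genes lower at that p were 679 to 1379 of 14860 in those fits, or 1048 of 7430 with the filter. With 1 array left out the members' median lay from -0.27 to -0.14, against -0.13 to -0.055 for all genes. Over all genes the split was 1228 lower and 255 higher as reported, 757 and 609 after quantile normalization, 679 and 572 after centring, and 805 and 545 after cyclic loess. Over all 12 alternatives the members' median ran from -0.27 to -0.08. Signs turned for the other 15. After quantile normalization they were Cd47 0.022, Itgb3 0.034, Rap1a 0.14, Rassf5 0.066, Tln1 0.011. After centring they were Itgb3 0.051, Rap1a 0.051, Rassf5 0.013, Tln1 0.0056, Vcam1 0.011, and after cyclic loess Cd47 0.022, Itgb3 0.016, Rap1a 0.12, Rassf5 0.041, Tln1 0.0038. With 1 array left out, changes that took both signs ranged from -0.055 to 0.36 for Cd151, from -0.39 to 0.0052 for Fermt3, from -0.15 to 0.16 for Icam1, from -0.85 to 0.025 for Icam2, from -0.11 to 0.18 for Itgam, from -0.11 to 0.18 for Itgav, from -0.010 to 0.21 for Itgb2. They ranged also from -0.22 to 0.087 for Itgb3, from -0.092 to 0.13 for Itgb7, from -0.16 to 0.024 for Rap1a, from -0.28 to 0.075 for Rassf5, from -0.22 to 0.010 for Vcam1, from -0.10 to 0.22 for Vcl. The cause was not tested. A fit with 1 array left out assumes that the lone array varies like the other group. The replicate numbers share only a number (correlation of deviations from the group means 0.097 over all genes). With the replicate number as a block 0 members passed over all genes and 7 were lower at an unadjusted p below 0.05, with Itga5 in place of Apbb1ip. Means of Selp, F11r, Fut7, St3gal6 and Gcnt1 in both groups, and those of Itga3, Itga5 and Itgae with JQ1, lay under the background reference.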
